A study of Homo sapiens with 3 samples.

Results

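The genes described here encode the chaperones and folding enzymes of the endoplasmic reticulum (ER), the sensors of the unfolded protein response, and the proteins that bring polypeptides into the ER or remove misfolded ones from it. They were taken as a list of 39 gene symbols, of which 38 have a probe set that names 1 gene, out of 18417 genes measured in this way. For P4HB, which has 2 such probe sets, the one with the higher mean was used. PDIA3 was left out because both of its probe sets also name the pseudogene PDIA3P1. RNA came from irinotecan-resistant LoVo-R8 cells cultured with 8 μM irinotecan, from LoVo-R8 cells in irinotecan-free culture, and from parental LoVo cells, with 1 Affymetrix Human Gene 1.0 ST array per condition. LoVo is an established human colorectal cancer cell line, and LoVo-R8 was selected from it by stepwise higher doses of irinotecan, a topoisomerase I poison, up to 8 μM. The same treatment text, which mentions irinotecan before RNA purification, stands in the labels of all arrays, and the sources used here do not say whether the parental culture received the drug or whether LoVo-R8 is 1 clone. Conditions are those of the sample labels, on which every statement about culture with or without irinotecan depends, because the sources disagree: a supplementary legend of the study says that its drug-free LoVo-R8 data were used, whereas the fold changes it tabulates for cell cycle arrest genes are those of the array labelled with irinotecan. Which of these sources is in error cannot be told from the files. All values are log2 levels from the authors' robust multichip average (RMA) normalization, and a difference is a subtraction of log2 levels, so that -1 is a 2-fold lower level. With 1 array per condition no value has an error, no test was possible, and both comparisons with parental LoVo rest on the same parental array.

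The ER folds secreted and membrane proteins, and when unfolded proteins accumulate in it, the sensors IRE1 (gene ERN1), PERK (EIF2AK3) and ATF6 switch on the unfolded protein response. IRE1 splices the mRNA of the transcription factor XBP1, ATF6 is itself cut to give a transcription factor, and PERK phosphorylates the translation factor eIF2 and so induces ATF4. ATF6 and XBP1 act on chaperone and degradation genes through short promoter elements, and the chaperone BiP (HSPA5) holds the sensors inactive when it is not occupied by unfolded proteins.

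The best known of these elements is the ER stress response element (ERSE), searched here on both strands as CCAAT and CCACG with 9 bases of any kind between them. ERSE-II was searched on both strands as ATTGG and CCACG with 1 base of any kind between them, and no gene of the list held both. The shorter motif TGACGTGG, to which ATF6 can bind, was searched on both strands as well. The sequences are RefSeq promoter windows of build GRCh38.p14, from 250 bases before to 50 bases after an annotated start, which were matched for 35 of the 38 measured genes. DERL1, DERL3 and ERN2 were not matched. The ERSE was found in 8 of these 35 genes (22.9%), against 0.133% of 14237 genes on the array with a window. The ERSE-II was found in 3 (8.57%), against 0.119%. TGACGTGG was found in DNAJC10, HYOU1 and SSR3 (8.57%), against 1.12%, and in HYOU1 it overlaps the distal ERSE-II. A match describes the letters of a window and does not show that a factor binds there, and the list was drawn from known genes of this response. The 2 genes whose promoters are shown in full up to the start site are the main ER chaperone HSPA5 and its nucleotide exchange factor HYOU1, both of which were lower on both LoVo-R8 arrays. Capitals mark the ERSE in HSPA5 and the ERSE-II copies in HYOU1, which read on the opposite strand.
HSPA5 (chr9:125241344-125241593, minus strand): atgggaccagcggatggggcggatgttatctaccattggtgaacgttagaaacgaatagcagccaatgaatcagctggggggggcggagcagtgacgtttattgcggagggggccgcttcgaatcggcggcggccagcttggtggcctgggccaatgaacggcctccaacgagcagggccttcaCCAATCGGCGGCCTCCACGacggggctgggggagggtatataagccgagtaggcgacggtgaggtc
HYOU1 (chr11:119057206-119057455, minus strand): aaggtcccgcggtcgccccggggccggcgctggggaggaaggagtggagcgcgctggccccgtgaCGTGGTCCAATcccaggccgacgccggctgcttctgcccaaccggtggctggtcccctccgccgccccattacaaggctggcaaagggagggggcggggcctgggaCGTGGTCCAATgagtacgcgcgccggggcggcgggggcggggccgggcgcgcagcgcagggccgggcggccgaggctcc

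The ERSE copies of the 8 genes are set out with 5 flanking bases on each side, on the strand on which the element reads from CCAAT to CCACG. Capitals mark the element, so that the conserved ends and the variable spacer of the listed genes can be compared.
CALR (chr19:12938379-12938407, minus strand): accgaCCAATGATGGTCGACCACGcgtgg
CANX (chr5:179698773-179698801, plus strand): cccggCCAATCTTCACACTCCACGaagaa
CRELD2 (chr22:49918549-49918577, minus strand): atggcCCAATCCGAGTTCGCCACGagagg
ERO1B (chr1:236282178-236282206, plus strand): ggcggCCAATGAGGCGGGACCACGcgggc
HSP90B1, distal (chr12:103930211-103930239, plus strand): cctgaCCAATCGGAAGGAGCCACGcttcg
HSP90B1, proximal (chr12:103930316-103930344, minus strand): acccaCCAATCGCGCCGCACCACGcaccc
HSPA5 (chr9:125241386-125241414, minus strand): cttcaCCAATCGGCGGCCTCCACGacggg
PDIA6 (chr2:10812848-10812876, minus strand): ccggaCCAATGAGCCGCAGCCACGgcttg
XBP1 (chr22:28800598-28800626, minus strand): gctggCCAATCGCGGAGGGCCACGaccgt

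The ERSE-II copies are shown in the same way, with capitals for the element. HYOU1 carries 2 copies with the same letters.
HERPUD1 (chr16:56932020-56932040, plus strand): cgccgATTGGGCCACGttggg
HYOU1, proximal (chr11:119057269-119057289, plus strand): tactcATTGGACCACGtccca
HYOU1, distal (chr11:119057375-119057395, plus strand): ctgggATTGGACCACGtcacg
SDF2L1 (chr22:21642109-21642129, minus strand): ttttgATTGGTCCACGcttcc

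**Figure D1:**
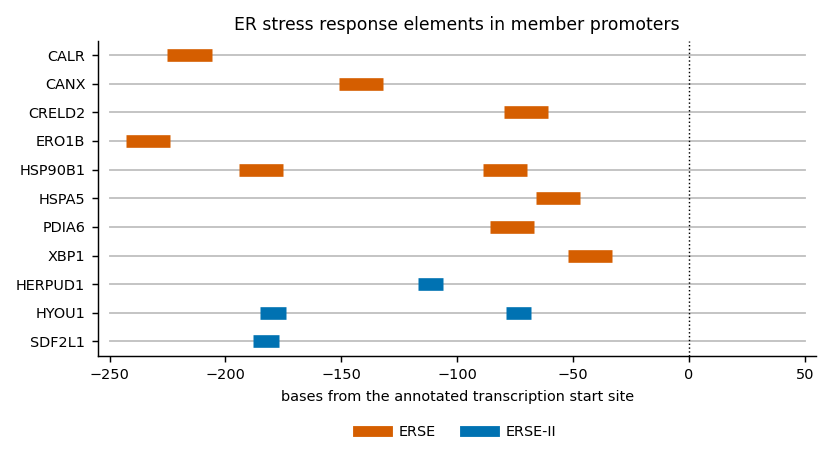
Position of the ERSE (orange) and ERSE-II (blue) in the promoter windows of 11 genes, in bases from the annotated transcription start site (dotted line at 0). HSP90B1 and HYOU1 have 2 copies each, and the ERSE of XBP1 lies closest to its start site, ending 34 bases before it.

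Most ER folding genes were lower in LoVo-R8 cells than in parental LoVo cells on both arrays. Of the 38 genes, 33 were below their parental level with irinotecan, against 44.7% of all genes, and 34 without it, against 38.5%. Of the 38, 32 were below it on both arrays, against 30.8% of all genes. At 2-fold, 8 of 38 were lower with irinotecan, where 2.3% of all genes were lower, and 8 of 38 were lower without irinotecan, where 2.78% were. None was 2-fold higher on either array, where 2.25% of all genes were with irinotecan and 1.64% without. The median difference from parental LoVo was -0.62 with irinotecan and -0.77 without it, and the median of all genes was 0.00 in both comparisons. At 1.5-fold, 20 were lower with irinotecan (7.19% of all genes) and 23 without it (8.84% of all genes), while 1 was higher with irinotecan (5.79% of all genes) and none without (4.37%). These are bright probe sets, and among the 5062 genes with a mean level of at least 8.74, the first quartile of the 38 genes, the medians were -0.04 with irinotecan and -0.09 without, and 2.29% and 3.1% were 2-fold lower. By any amount, 54.6% of these bright genes were below parental LoVo with irinotecan, 58.6% without it and 47.9% on both arrays. In bulk RNA, fewer cells that express a gene and less RNA per cell cannot be told apart. After loess correction or repeated quantile normalization, 5 instead of 8 genes were 2-fold lower without irinotecan, because HYOU1, MANF and DERL2 stood just past the threshold.

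**Figure D2:**
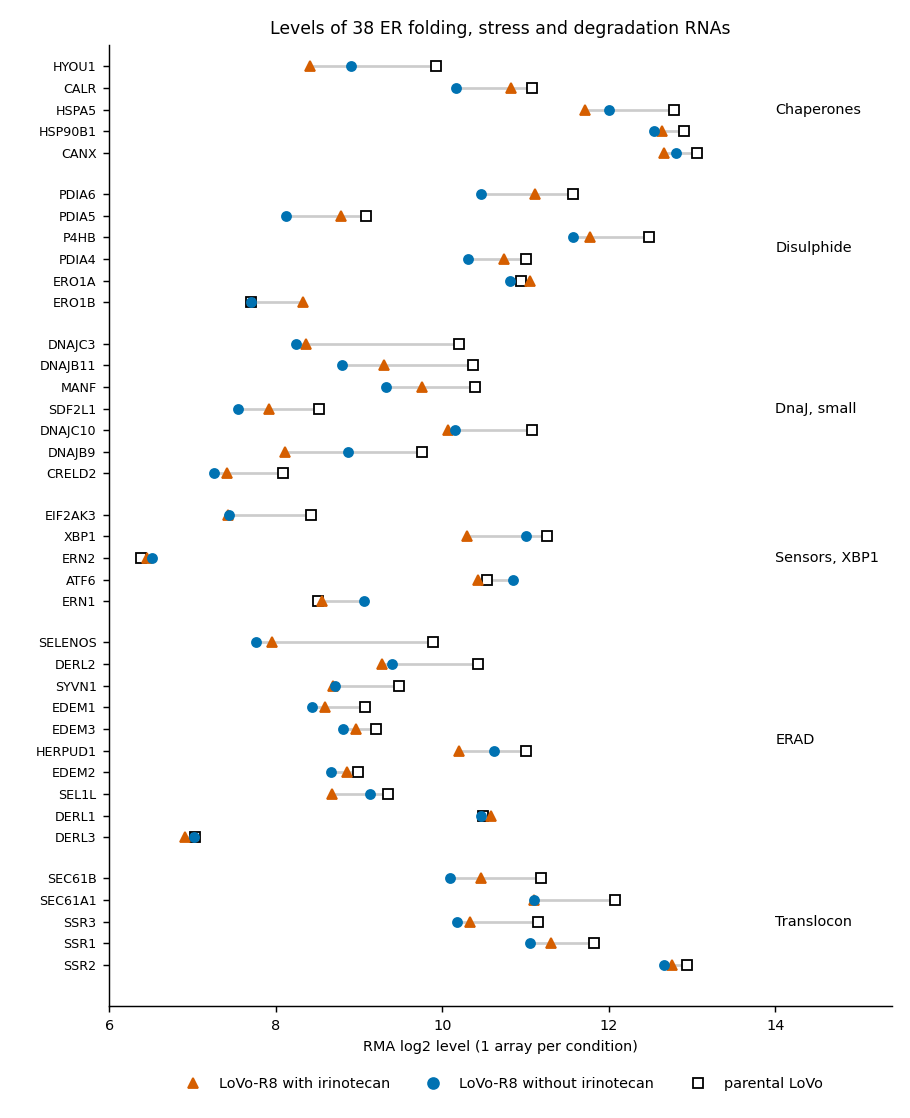
RMA log2 level of each measured gene in LoVo-R8 with irinotecan (triangles), LoVo-R8 without irinotecan (circles) and parental LoVo (open squares), 1 array each, grouped by role. Parental LoVo is the highest of the 3 for 32 of the 38 genes, and the widest gap is that of SELENOS, at 7.95, 7.76 and 9.89.

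Among the chaperones proper, HSPA5 (BiP, the Hsp70 of the ER; chr9:125234853-125241343) had a level of 11.71 in LoVo-R8 with irinotecan and 12.01 without, against 12.78 in parental LoVo. Both resistant arrays were below the parental one, and the difference passed 2-fold with irinotecan only (-1.07 with, -0.78 without). HYOU1 (GRP170, which exchanges the nucleotide of BiP; chr11:119044188-119057205) had 8.41 with irinotecan and 8.91 without, against 9.92 in parental LoVo. It was 2.85-fold lower with irinotecan and 2.02-fold lower without, the lowest of this group in both comparisons. CALR, which encodes the lectin chaperone calreticulin, had 10.82 with irinotecan and 10.17 without, against 11.08 in parental LoVo. The drug-treated array lay close to the parental one, and only the drug-free array was clearly below it (differences -0.26 and -0.91). HSP90B1 (GRP94) and CANX, the membrane-bound partner of calreticulin, stayed within 1.5-fold, at -0.27 and -0.40 with irinotecan and -0.35 and -0.25 without.

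Of the disulphide isomerases, PDIA4, PDIA5 and PDIA6 were lower chiefly in the drug-free LoVo-R8 cells. PDIA6 had 11.11 with irinotecan and 10.46 without, against 11.57 in parental LoVo, and was 2.16-fold lower without irinotecan. PDIA5 had 8.79 with irinotecan and 8.12 without, against 9.08, and its difference without irinotecan (-0.96) fell just short of 2-fold. The drug-treated level of both genes lay between the other two. PDIA4 had differences of -0.26 with irinotecan and -0.69 without. P4HB, the classical protein disulphide isomerase, had 11.77 with irinotecan and 11.58 without, against 12.49 in parental LoVo. It was more than 1.5-fold lower on both arrays (-0.72 with irinotecan and -0.91 without). Its other probe set read 10.67, 10.32 and 11.50 in the same order, with differences of -0.83 and -1.18, so that only this one passed 2-fold without irinotecan. The oxidases that recharge these isomerases showed no clear drop from parental LoVo, although both were also higher with irinotecan than without. ERO1A had 11.06 with irinotecan and 10.81 without, against 10.94. ERO1B had 8.33 with irinotecan, and 7.71 both without it and in parental LoVo, and its drug-treated array was the highest (difference 0.62). ERO1B is the only one of the 38 genes with equal values on a pair of arrays.

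The DnaJ family supplies the co-chaperones that hand substrates to BiP, and DNAJC3 had the lowest difference outside ER-associated degradation in both comparisons. DNAJC3 (p58IPK, also an inhibitor of PERK; chr13:95677139-95794988) had 8.37 with irinotecan and 8.24 without, against 10.20 in parental LoVo. That is 3.55-fold lower with irinotecan and 3.87-fold lower without, ranks 108 and 112 from the lowest of 18417 genes. DNAJB11 (ERdj3; chr3:186570720-186585793) had 9.31 with irinotecan and 8.79 without, against 10.37, and was 2-fold lower on both arrays (-1.07 and -1.58). DNAJB9 (ERdj4, which represses IRE1; chr7:108569874-108574850) had 8.11 with irinotecan and 8.87 without, against 9.76. Here the drug-treated array was the lowest, at 3.14-fold below parental LoVo, and the drug-free array missed 2-fold (-0.89). DNAJC10 (ERdj5, a disulphide reductase) had 10.07 with irinotecan and 10.16 without, against 11.08. It stood just inside 2-fold with irinotecan (-1.01; -0.99 after loess correction) and just outside it without (-0.93).

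Small soluble products of the response moved in the same direction. MANF, a secreted factor of the ER, had 9.75 with irinotecan and 9.33 without, against 10.39 in parental LoVo, with differences of -0.64 and -1.06. SDF2L1, which forms a complex with DNAJB11, had 7.92 with irinotecan and 7.54 without, against 8.52, with differences of -0.60 and -0.97. CRELD2 had -0.67 with irinotecan and -0.83 without. All 7 genes of the DnaJ and small-product group were at least 1.5-fold lower on both arrays, as were 5.4% of all genes.

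The sensors did not move together. EIF2AK3, which encodes PERK (chr2:88556741-88628145), had 7.43 with irinotecan and 7.44 without, against 8.42 in parental LoVo. Both resistant arrays were nearly equal and just short of 2-fold below the parental one (-0.99 and -0.98). ERN1, which encodes IRE1, had 8.55 with irinotecan and 9.07 without, against 8.51. Only the drug-free array stood out, above the others (0.56), while the drug-treated one was at the parental level (0.05). ATF6 had 10.43 with irinotecan and 10.85 without, against 10.53, again with the drug-free array the highest (-0.10 with, 0.32 without). ERN2, an IRE1 paralog of gut epithelium, had 6.45 with irinotecan and 6.51 without, against 6.38, and was the only gene of the list below the median of the parental array (6.94). XBP1 (chr22:28794560-28800569) had 10.29 with irinotecan and 11.00 without, against 11.26 in parental LoVo. Its difference was -0.96 with irinotecan and -0.25 without, and a probe set level does not tell spliced from unspliced XBP1 mRNA.

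ER-associated degradation exports misfolded proteins to the proteasome, and 2 of its 10 genes were 2-fold lower on both arrays, as were 1.74% of all genes. SELENOS, a selenoprotein that links the channel to the ATPase p97 (chr15:101270809-101277485), had 7.95 with irinotecan and 7.76 without, against 9.89 in parental LoVo. It was the lowest of the 38 genes in both comparisons, 3.83-fold lower with irinotecan and 4.38-fold lower without, ranks 94 and 97 from the lowest of all genes. DERL2, a derlin of the same export complex (chr17:5471254-5486817), had 9.27 with irinotecan and 9.39 without, against 10.43, with differences of -1.16 and -1.04. Its paralogs were near their parental levels, with DERL1 at 0.10 with irinotecan and -0.03 without and DERL3 at -0.12 and -0.02. The ligase gene SYVN1 (HRD1) had differences of -0.79 with irinotecan and -0.77 without. Its adaptor SEL1L had -0.66 and -0.22, and HERPUD1, a stress-induced scaffold of this ligase, had -0.81 and -0.38, both lower in the drug-treated array than in the drug-free one. The EDEM genes, whose products mark glycoproteins for export, lay between -0.13 (EDEM2 with irinotecan) and -0.64 (EDEM1 without).

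Translocon genes were below parental LoVo on both arrays. SEC61B, a small subunit of the channel, had 10.47 with irinotecan and 10.09 without, against 11.18, and passed 2-fold without irinotecan (-0.72 and -1.09). SEC61A1, the pore-forming subunit, had 11.10 on both LoVo-R8 arrays, against 12.08, so that it stood just outside 2-fold on both (-0.98). Of the translocon-associated subunits, SSR3 had -0.82 with irinotecan and -0.97 without, SSR1 -0.51 and -0.77, and SSR2 -0.18 and -0.27.

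**Figure D3:**
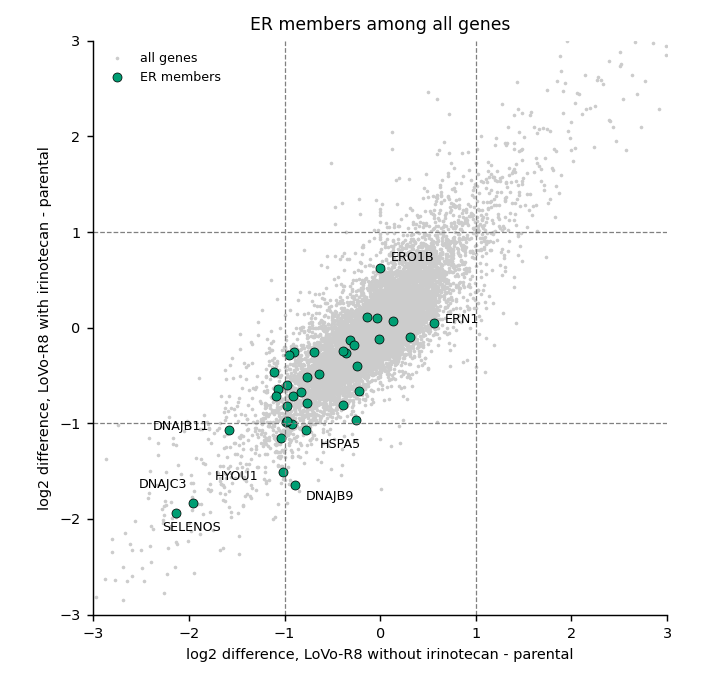
Log2 difference from parental LoVo without irinotecan (horizontal axis) and with irinotecan (vertical axis) for all genes (grey) and the 38 ER genes (green), with dashed lines at 2-fold and 61 genes outside the plotted range. SELENOS and DNAJC3 lie lowest of the ER genes, ERN1 lies furthest right at 0.56 and ERO1B highest at 0.62. Both axes share the parental array.

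In all, 5 of the 38 genes (13.2%) were 2-fold lower on both LoVo-R8 arrays, as were 1.74% of all genes and 1.52% of the bright genes. They were HYOU1, DNAJB11, DNAJC3, DERL2 and SELENOS. Another 3 passed 2-fold with irinotecan only (HSPA5, DNAJB9 and DNAJC10), and 3 without irinotecan only (PDIA6, MANF and SEC61B). The difference between these sets was not tested. The 11 genes with an ERSE or ERSE-II had median differences of -0.60 with irinotecan and -0.78 without, and the 24 genes with a window but neither element had -0.69 and -0.90. SELENOS, DNAJC3 and DNAJB11 are among the genes without an exact match to either element in these windows. Variant copies of the elements were not searched for. Outside the list, 25 genes carried an element, and their medians were 0.01 with irinotecan and 0.00 without.

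The LoVo-R8 arrays themselves differed by less than 2-fold for all 38 genes, while 0.527% of all genes were 2-fold higher with irinotecan than without and 0.114% 2-fold lower. With irinotecan, 22 genes were above their drug-free level and 16 below it, against 39.4% and 48.4% of all genes and 58.2% and 38.4% of the bright genes, so that these counts were near the shares of the bright genes. The median difference was 0.13, against 0.00 for all genes and 0.04 for the bright genes. The groups by role differed in direction, which was not tested. All 6 disulphide genes were above the drug-free level, with a median of 0.53. PDIA5 (0.67), PDIA6 (0.65) and ERO1B (0.62) were more than 1.5-fold higher with irinotecan, together with CALR (0.65), where 2.87% of all genes were. The 5 genes of the group of sensors and XBP1 were all below the drug-free level, with a median of -0.42, although EIF2AK3 (-0.01) was above it after median centring or loess correction and ERN2 (-0.06) after loess correction. XBP1 (-0.71) and DNAJB9 (-0.76), a known target of XBP1, were more than 1.5-fold lower with irinotecan, as were 1.08% of all genes. They ranked 97 and 80 from the lowest of 18417 genes. ERN1 (-0.51), HYOU1 (-0.50), SEL1L (-0.45), HERPUD1 (-0.42) and ATF6 (-0.42) followed. DNAJB11 (0.52), PDIA4 (0.43) and MANF (0.43) were on the other side. For 95% of all genes the LoVo-R8 arrays lay within 0.53 of each other, and 6 of the 38 genes (15.8%) lay beyond this range. SYVN1 (-0.02) and EIF2AK3 were nearly equal on both arrays.

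**Figure D4:**
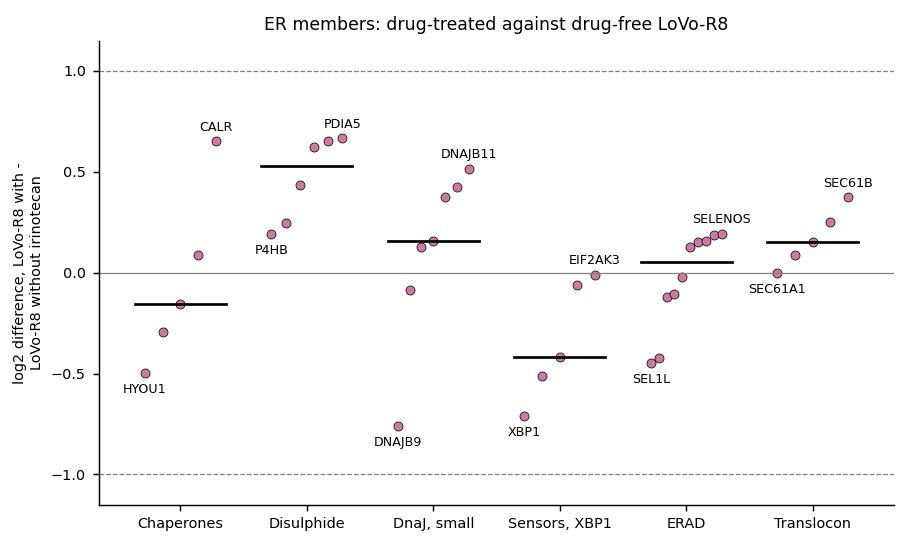
Log2 difference of LoVo-R8 with irinotecan minus LoVo-R8 without irinotecan for each ER gene, by role, where a black bar is a group's median and a dashed line 2-fold. The disulphide group has its median at 0.53 and the group of sensors and XBP1 at -0.42.

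Further genes of the secretory pathway were counted in 8 accompanying lists, against the same shares of all genes. At 2-fold, 2.3% of all genes were lower and 2.25% higher with irinotecan, and 2.78% lower and 1.64% higher without. Of 18 genes of the COPII coat and ER exit, 3 were 2-fold lower with irinotecan and 5 without, and none was 2-fold higher. The coat gene SEC24D had 9.15 with irinotecan and 8.52 without, against 10.22 in parental LoVo. The GTPase gene SAR1B had differences of -1.08 and -1.31, the cargo receptor gene LMAN1 -1.21 and -0.95, PREB -0.61 and -1.10, SEC13 -0.86 and -1.08 and SEC24A -0.60 and -1.03. Of 19 further genes of translocation, signal recognition and signal peptidase, 4 were 2-fold lower with irinotecan and 3 without. The receptor gene SRPRB had 8.82 with irinotecan and 9.08 without, against 10.28. The peptidase subunit genes SPCS2 (-1.03 and -1.17) and SEC11C (-0.99 and -1.33) were also low, as was TRAM1 (-1.05 and -0.89). SRP19, a subunit of the signal recognition particle, had 8.78 with irinotecan and 8.89 without, against 9.78, and was just inside 2-fold with irinotecan. The medians were -0.37 with irinotecan and -0.72 without for ER exit, and -0.50 and -0.58 for translocation.

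Of 18 genes of N-glycosylation, none was past 2-fold on either array, with medians of -0.08 with irinotecan and -0.26 without. PRKCSH, a glucosidase subunit gene, had 0.64 and 0.45, the oligosaccharyltransferase subunit gene RPN2 had -0.27 and -0.71, and the glucosyltransferase gene ALG5 had -0.73 and -0.70. Of 20 further degradation genes, none was 2-fold lower with irinotecan and 2 were without, the ubiquitin-conjugating enzyme gene UBE2J1 (-0.87 and -1.10) and SVIP (-0.75 and -1.01). VCP, which encodes p97, had -0.58 and -0.99. Of 19 further isomerases, FKBP7 was 2-fold higher on both arrays (1.16 and 1.01), and PPIC was 2-fold lower without irinotecan (-0.35 and -1.07). Of 16 regulators, WFS1, an ER membrane protein gene, was 2-fold lower without irinotecan (-0.90 and -1.16), and STC2 had -0.93 and -0.44. NFYA and NFYB, subunits of the factor that binds the CCAAT part of the ERSE, had -0.54 and -0.72 with irinotecan and -0.75 and -0.62 without. NFYC, another subunit of this factor, was near its parental level, at -0.19 with irinotecan and 0.08 without. Of 12 genes of ER calcium handling, none was 2-fold lower with irinotecan and 2 were without, ITPR2 (-0.52 and -1.90) and CALU (-0.24 and -1.13). None was 2-fold higher than parental LoVo, but ITPR1 (0.76 and 0.29) and STIM1 (0.65 and 0.78) were above it on both arrays. RCN1 had -0.75 with irinotecan and -0.47 without. ITPR2, an inositol trisphosphate receptor gene, had 7.24 with irinotecan and 5.87 without, against 7.76 in parental LoVo, and was also 2-fold higher with irinotecan than without (1.38).

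Of 14 genes of the PERK and ATF4 branch, 2 were 2-fold lower than in parental LoVo with irinotecan (2.3% of all genes). None was 2-fold higher (2.25%). Without irinotecan, 3 were 2-fold higher (1.64% of all genes) and none lower (2.78%). DDIT3, which encodes the transcription factor CHOP, had 9.29 with irinotecan and 10.66 without, against 9.47 in parental LoVo. TRIB3, a target of CHOP, had 8.80 with irinotecan and 10.36 without, against 9.26. PPP1R15A (GADD34), which reverses eIF2 phosphorylation, had 8.96 with irinotecan and 9.93 without, against 8.53. The drug-free array was the highest of the 3 for these genes, as it was for ERN1 and ATF6. CHAC1 had 7.60 with irinotecan and 9.29 without, against 9.28. NUPR1 had 6.75 with irinotecan and 7.91 both without it and in parental LoVo. Between the LoVo-R8 arrays, 6 of the 14 genes were 2-fold lower with irinotecan, where 0.114% of all genes were. Among them were DDIT4 (-1.58) and SESN2 (-1.22), and the median of the 14 genes was -0.96. ATF4 itself, whose protein is controlled by translation, had differences from parental LoVo of -0.48 with irinotecan and -0.05 without.

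**Figure D5:**
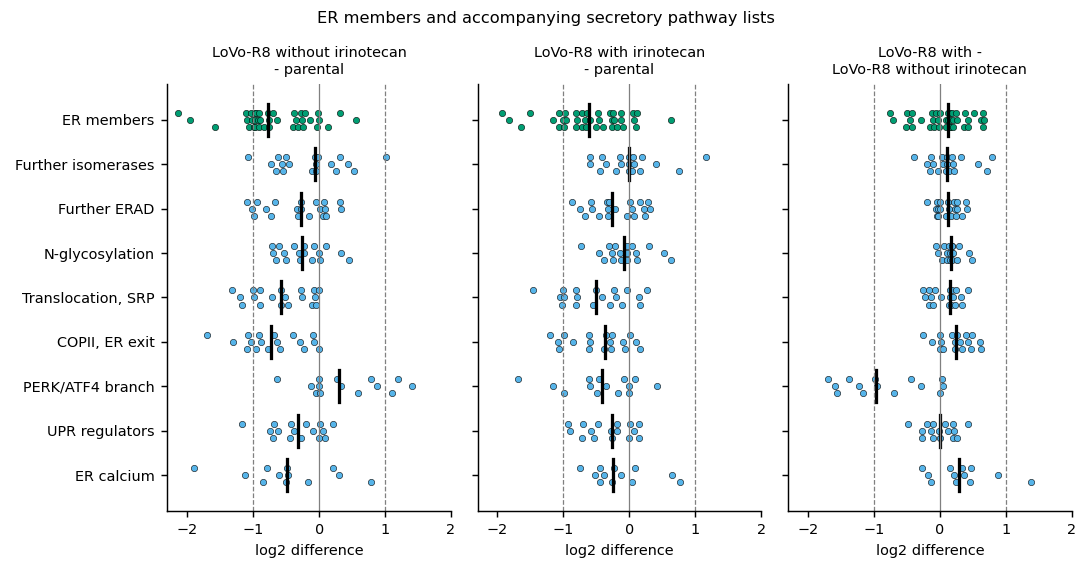
Log2 differences of the 38 ER genes (green) and of the members of 8 accompanying lists (blue) in the 3 comparisons, where a black bar is a list's median and a dashed line 2-fold. With irinotecan, the medians of the ER genes (-0.62) and of all 8 lists lie left of 0 against parental LoVo. They are -0.50 for further translocation, -0.41 for the PERK and ATF4 branch and -0.37 for ER exit. Regulators (-0.27), further degradation (-0.26), calcium handling (-0.25), N-glycosylation (-0.08) and further isomerases (-0.01) follow. Without irinotecan, only the PERK and ATF4 branch has its median right of 0 (0.30). Between the LoVo-R8 arrays, the median of this branch is -0.96.

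The arrays had median levels of 6.94, 6.95 and 6.94 in LoVo-R8 with irinotecan, LoVo-R8 without irinotecan and parental LoVo. The epithelial genes EPCAM, KRT8, KRT18 and KRT19 were between 11.74 and 13.27 on all arrays. Other epithelial markers were dimmer, with KRT20, VIL1 and CDX1 between 6.13 and 7.20. CDX2 was between 8.88 and 9.79, and was above parental LoVo by 0.91 with irinotecan and 0.35 without. Of 16 measured markers of fibroblasts, endothelial cells, leukocytes and plasma cells, none was past 2-fold in any comparison. The leukocyte gene PTPRC was at 4.12 on all arrays, while CD3E, CD14 and ITGAM were between 5.54 and 6.29. The fibroblast genes DCN and LUM were between 3.73 and 4.10, while COL1A1, COL1A2 and COL3A1 were between 6.67 and 7.66. The endothelial genes PECAM1, CDH5, VWF and KDR were between 5.09 and 6.12. Of 11 colorectal epithelial markers, 3 were 2-fold lower on both LoVo-R8 arrays, as were 1.74% of all genes, and none was higher. The 3 were CDH1 (-2.26 with irinotecan and -3.06 without), LGALS4 (-2.01 and -2.27) and CEACAM5 (-2.11 and -2.37). The part of this shift in the ER results was not tested. The plasma cell genes MZB1 and JCHAIN, which mark cells with a large ER, were between 4.05 and 6.09, and SDC1, which epithelial cells also express, was between 8.42 and 8.59.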

How the data were processed

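Total RNA of 3 cultures (300 ng each) was hybridised by the authors to Affymetrix Human Gene 1.0 ST arrays, 1 per condition. The deposited log2 values were made by the authors with RMA (background correction, quantile normalization and median polish), in R and Bioconductor according to the methods and in Affymetrix Expression Console 1.1 according to the submitters' processing notes. The table holds 33297 probe sets with no detection filter, and RMA shrinks differences near background. Of the probe sets, 19460 name 1 gene, 1754 several and 12083 none in the platform annotation, and gene positions were matched by Entrez identifier to RefSeq GRCh38.p14 for all 38 genes.

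Levels were subtracted and counted at 2-fold, with no test since no condition has a replicate. The members and lists were chosen with earlier results of these data known. Genes were named by a rule that takes members past 2-fold, the extremes of each comparison, the sensors and XBP1, and from other lists those past 2-fold. The rule also takes the largest differences of the other lists, but not all of these were named above. ERP29 (0.75 with irinotecan against parental LoVo) is one. Others are QSOX1 (0.78), KDELR3 (0.61) and MAGT1 (0.49), between the LoVo-R8 arrays. VCP, ATF4, NFYA, NFYB, NFYC and STIM1 were picked with their values in view. Other settings tried were median centring, loess correction (span 0.3, 3 iterations), thresholds of 1.5-fold and 3-fold, repeated quantile normalization, the mean over probe sets, a filter below the 25th percentile, and the mean of both LoVo-R8 arrays. The comparison with bright genes and with chromosomal neighbours was added after seeing the data. Planned protein features were not analysed here, since protein sequences were not used. Calculations used Python 3.11.15, numpy 2.4.6, pandas 2.3.3, statsmodels 0.14.6 and matplotlib 3.10.9, and the counting was tested on simulated data.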

Additional observations from a re-analysis of the deposited data

How the results depend on the processing

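The number of arrays limits every value. RMA shrinks differences near background, and whether it did so for ERN2 and DERL3, the dimmest of the 38 genes, was not measured. The direction of the shift against parental LoVo was kept under median centring, loess correction, repeated quantile normalization and the mean over probe sets, with medians of the 38 genes between -0.62 and -0.59 with irinotecan and between -0.78 and -0.75 without it, and the median of all genes lay between -0.02 and 0.02 under each of them. Without irinotecan, the count of genes lower than in parental LoVo was 5 instead of 8 after loess and 5 after repeated quantile normalization, where HYOU1 (-0.94 and -0.92), MANF (-0.99 and -0.99) and DERL2 (-0.96 and -0.96) missed 2-fold. At 1.5-fold it was 23 and at 3-fold 2. With irinotecan it was 20 at 1.5-fold and 3 at 3-fold, and 1 gene was higher at 1.5-fold. The share of all genes at 3-fold was not computed, so the counts at 3-fold have no background beside them. Between the LoVo-R8 arrays, 4 genes were higher and 2 lower at 1.5-fold, against 0 at 2-fold, and the median difference was 0.09 after loess and 0.07 after repeated quantile normalization, against 0.13. The other 49 of 58 alternatives for counts and medians stayed within 1.5 times the count or 0.1 of the median. Of 456 alternatives for single genes, 448 stayed on the same side of 2-fold, 7 fell below it and 1 passed it (P4HB without irinotecan, -1.04 as the mean of both probe sets). The sign of a difference changed in 6 of them, all with a difference under 0.1 (DERL1, ERN2, EIF2AK3 and SEC61A1). Many of these 456 alternatives could hardly change a gene. The mean over probe sets could change P4HB only, and median centring moved all genes by the same small amount in each comparison. No paired analysis was possible because no condition has a replicate.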

Other observations

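The differences of the ER genes were set beside those of the measured genes next to them on the chromosome, 5 on each side. Against parental LoVo, the medians of the 10 neighbours of each gene lay between -0.43 and 0.20 with irinotecan and between -0.41 and 0.25 without it. In each comparison 33 of the 38 genes were below their own neighbours' median. The matching share of all genes was not computed. The neighbours' medians centred on 0.00 in both comparisons, so this count largely repeats that of genes below parental LoVo. The neighbours of SELENOS on chromosome 15 had medians of -0.01 with irinotecan and -0.26 without, and those of DNAJC3 on chromosome 13 had 0.02 and 0.07. The neighbours of HYOU1 on chromosome 11 had 0.01 with irinotecan and -0.09 without, and those of DNAJB11 on chromosome 3 had 0.04 on both. CANX on chromosome 5 was an exception, since its neighbours (-0.43 with irinotecan and -0.41 without) were lower than CANX itself. DERL2 on chromosome 17 had neighbours at -0.19 with irinotecan and -0.22 without. Neighbours were chosen after seeing the data, and their values are a description without a test.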
